A study of Mus musculus with 12 samples.

Results

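The Nedd4 family of HECT ubiquitin ligases and its Ndfip adaptors were followed through MuSCs (muscle stem cells, the satellite cells of skeletal muscle) and myoblasts. The 10 genes are Nedd4l, Nedd4, Itch, Wwp1, Wwp2, Smurf1, Smurf2, Hecw2, Ndfip1 and Ndfip2. They were chosen by gene symbol, and all 10 were listed in both tables, which hold 16503 and 16169 genes and 17505 in either. All 10 also passed the filter on low values in both tables. Hecw2 did so only with its myoblast libraries and, in the other comparison, only with its Nedd4L-cKO libraries.

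Each library was made by SMART-seq, a full-length cDNA method, from 1000 cells. WT fresh MuSCs came from 3 WT mice, and WT myoblasts came from cells of the same 3 mice after 3 days in growth medium with serum and bFGF. The age of these 3 mice is not given singly, the methods stating 1 to 12 months and both sexes over all mouse experiments and male mice as the source of primary myoblasts. Nedd4L WT MuSCs and Nedd4L-cKO MuSCs came from 3 male mice each, aged 5 to 6 weeks. MuSCs were sorted from hindlimb muscle as ITGA7-positive cells lacking CD31, CD45, CD11b and SCA1. The Nedd4L-cKO line is Nedd4L fl/fl Pax7 cre/+ on a C57BL/6 background, in which Cre made from the Pax7 locus removes exon 15 of Nedd4l in cells that express Pax7. The gene is still transcribed without that exon, and the gene totals used here do not separate transcripts with and without it. Whether the WT controls carried floxed alleles or Cre is not given in the sources used here.

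HECT ligases take ubiquitin from an E2 enzyme onto a cysteine of their own and pass it from there to the substrate. Members of the Nedd4 family carry a C2 domain, which binds membranes, several WW domains and a C-terminal HECT domain, and the WW domains recognise short proline-rich PY motifs in substrates. Ndfip1 and Ndfip2 are membrane proteins of the Golgi and endosomes that carry PY motifs, recruit the ligases to membrane cargo and relieve their autoinhibition. In muscle, family members are known as regulators of growth factor receptors, of SMAD signalling and of Pax7 itself, the transcription factor that defines satellite cells.

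The name of the family was checked against the sequences. The conserved HECT cysteine was found once in each of the 8 ligases, 33 residues from the end of the protein in Nedd4 and Nedd4l and 32 residues from the end in the other 6. In each ligase the codons around it run across the last intron. The 36 coding bases around this cysteine are shown for 7 of the 8 ligases (all but Nedd4l), from GENCODE M39 transcripts on GRCm39, 5′ to 3′ along the coding strand with the cysteine codon in capitals, because this is the residue that makes these proteins ligases.
Nedd4: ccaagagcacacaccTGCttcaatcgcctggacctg
Itch: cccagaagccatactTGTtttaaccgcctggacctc
Wwp1: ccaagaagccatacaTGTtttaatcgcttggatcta
Wwp2: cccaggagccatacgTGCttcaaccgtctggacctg
Smurf1: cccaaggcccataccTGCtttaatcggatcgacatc
Smurf2: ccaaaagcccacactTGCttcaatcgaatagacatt
Hecw2: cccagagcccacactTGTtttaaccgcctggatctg
Including the intron, the stretches lie at chr9:72653745-72654426 (+) for Nedd4, chr2:155062184-155066305 (+) for Itch, chr4:19611795-19618301 (-) for Wwp1, chr8:108283400-108283537 (+) for Wwp2, chr5:144816248-144817451 (-) for Smurf1, chr11:106713572-106713862 (-) for Smurf2 and chr1:53852462-53866039 (-) for Hecw2. The stretches were much alike, with between 23 and 31 of the 36 bases shared by each pair.

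PY motifs were searched only in the form PPxY, where x is any residue. Each adaptor held 2 motifs of this form, and none of the 8 ligases held any. Other forms of the motif were not searched. The 2 PPxY stretches of Ndfip2 are shown with the motif codons in capitals, because such motifs are docking sites for the WW domains of the ligases.
Ndfip2 first motif: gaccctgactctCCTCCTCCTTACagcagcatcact
Ndfip2 second motif: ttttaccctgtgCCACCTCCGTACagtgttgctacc
They are exonic, at chr14:105525156-105525191 (+) in exon 2 and chr14:105529686-105529721 (+) in exon 3 of GRCm39.

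Over the last 350 residues, which hold the HECT domain, the family fell into pairs and a trio. Nedd4 and Nedd4l had 83.7% identical residues, Smurf1 and Smurf2 had 86.9%, and Wwp1 had 83.4% with both Itch and Wwp2, which had 79.4% with each other. All pairs across these groups, and every pair with Hecw2, lay between 49.4% and 57.7%. Ndfip1 and Ndfip2 shared 58.6% of aligned residues. Transcripts of different members shared few 31-base words, at most 0.428% of the words of a member (Itch), which leaves little sequence that reads of the relatives could not tell apart.

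Expression is given as RPM, the deposited normalized count scaled so that the average library of a table sums to 1000000. Normalized totals ran from 33189802 to 37595659 in the 6 libraries of fresh MuSCs and myoblasts and from 40323468 to 50687122 in the 6 libraries of WT and Nedd4L-cKO MuSCs. The tables were normalized separately, so tests were made only within a table. Markers of satellite cells (9 genes, Pax7 and Calcr among them) summed to between 3621 and 5301 RPM in all 9 MuSC libraries and to between 530.4 and 675 RPM in the 3 myoblast libraries. Chodl carried much of the sum in MuSCs, at 1289 to 3039 RPM. Leukocyte markers (6 genes) summed to at most 38.8 RPM in every library, with Ptprc under 1 RPM throughout, and of the 6 endothelial markers Cdh5, Cldn5, Emcn and Kdr were not listed or under 1 RPM in every library. The other 2, Tek and Pecam1, measured 19.1 to 79.6 and 9.45 to 49.9 RPM in the MuSC libraries. Changes are those of bulk RNA, in which fewer cells of a type and less RNA per cell cannot be told apart.

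The first question was how much RNA each member contributes to a MuSC. Levels of different genes were compared per kb of the canonical transcript. In fresh MuSCs the adaptor Ndfip1 stood highest at 262 ± 27.6 RPM per kb (SD, n = 3), followed by Nedd4 at 143 ± 13.02 and the adaptor Ndfip2 at 69.5 ± 6.58 RPM per kb. Ranges of neighbours in this order did not overlap. Nedd4l (11.4 ± 3.44 RPM per kb) and Itch (10.8 ± 1.47 RPM per kb) came next and overlapped each other. Wwp2 (5.61 ± 0.854 RPM per kb) and Smurf2 (4.16 ± 0.492 RPM per kb) also overlapped each other, as did Wwp1 (2.05 ± 0.925 RPM per kb) and Smurf1 (2.01 ± 0.616 RPM per kb). Hecw2 was last, at 0.0162 ± 0.0227 RPM per kb, and was listed at 0 in 1 of the 3 libraries. The 3 Nedd4L WT MuSC libraries of the second cohort gave the same 3 leaders, with Ndfip1 at 250 ± 25.4, Nedd4 at 137 ± 22.4 and Ndfip2 at 68.5 ± 0.609 RPM per kb, and again Itch and Nedd4l next with overlapping ranges.

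Nedd4 therefore made up most of the ligase RNA of the family. Its share of the summed RPM per kb of the 8 ligases was 80.0% ± 1.22 in fresh MuSCs, 80.4% ± 3.05 in myoblasts, 80.7% ± 1.90 in Nedd4L WT MuSCs and 80.9% ± 4.00 in Nedd4L-cKO MuSCs (SD, n = 3 each). These shares overlapped in both comparisons. A similar share is not a similar level. The mean of Nedd4 was 137 RPM per kb in Nedd4L WT and 114 RPM per kb in Nedd4L-cKO MuSCs, with overlapping ranges. Apart from the adaptor Ndfip2, the members that passed a test below were among the 7 other ligases, which share the remaining RNA.

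In myoblasts against fresh MuSCs, 4 of the 10 members passed the limma test at an adjusted p of at most 0.05, with Nedd4l and Ndfip2 lower and Wwp2 and Hecw2 higher. Hecw2 was tested only through its myoblast libraries. Of the 15345 genes tested, 42.8% passed, 22.2% as higher and 20.6% as lower, so a count of 4 is near the background of this comparison. The median log2 fold change was -0.12 over the members and 0.04 over all genes tested. Groups did not overlap for 6 of the 10 members, against 55.2% of all genes tested.

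Nedd4l (chr18:65020724-65350899 (+) of GRCm39, as for all positions) restrains the epithelial sodium channel and other membrane proteins. It measured 126, 77.6 and 76.3 RPM in the 3 fresh MuSC libraries and 42.0, 30.3 and 29.8 RPM in the 3 myoblast libraries. Every myoblast library lay under every MuSC library. The log2 fold change was -1.40 (SE 0.26, 95% interval -2.002 to -0.807), a 2.65-fold fall with a limma adjusted p of 0.00289. An exact two-sided permutation test over the 6 libraries gave p = 0.1, the smallest that 3 against 3 allows.

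Nedd4 (chr9:72569596-72657134 (+)), the founding member of the family, measured 870.0, 742 and 750.0 RPM in fresh MuSCs and 740.5, 998 and 845 RPM in myoblasts. The groups overlapped, and their difference was 0.12 on the log2 scale (SE 0.18, 95% interval -0.28 to 0.52), with a limma adjusted p of 0.605.

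Itch (chr2:154975388-155069532 (+)), best known for restraining JunB in T cells, measured 62.7, 73.8 and 56.5 RPM in fresh MuSCs and 40.6, 54.9 and 55.4 RPM in myoblasts. The groups just missed overlapping, and the difference did not pass the test, with a log2 fold change of -0.35 (SE 0.22) and a limma adjusted p of 0.224.

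Wwp2 (chr8:108162988-108286023 (+)), a relative of Itch, measured 31.7, 29.3 and 23.4 RPM in fresh MuSCs and 99.3, 73.0 and 53.6 RPM in myoblasts. The lowest myoblast library stood above the highest MuSC library. The log2 fold change was 1.35 (SE 0.27, 95% interval 0.74 to 1.97), a 2.56-fold rise with a limma adjusted p of 0.00389. Its close relative Wwp1 (chr4:19605285-19709190 (-)), the gene mutated in a muscular dystrophy of chickens, measured 28.4, 10.6 and 20.2 RPM in fresh MuSCs and 32.9, 35.4 and 30.2 RPM in myoblasts. The groups of Wwp1 did not overlap, and MuSC library 04 lay close to the myoblasts. The log2 fold change of Wwp1 was 0.80 (SE 0.35), with a limma adjusted p of 0.0909, which became 0.0304 at a log2 fold change of 1.11 without that library. Without MuSC library 05, the lowest, the adjusted p was 0.275 at 0.44 on the log2 scale.

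Smurf1 (chr5:144813300-144902866 (-)) and Smurf2 (chr11:106710889-106811583 (-)), which act on SMAD proteins and on TGF-β receptors, did not pass the test. Smurf1 measured 14.7, 8.20 and 10.02 RPM in fresh MuSCs and 17.2, 13.8 and 16.2 RPM in myoblasts, with a log2 fold change of 0.51 (SE 0.30) and a limma adjusted p of 0.205. Smurf2 measured 25.2, 20.04 and 21.7 RPM in fresh MuSCs and 9.57, 24.0 and 21.2 RPM in myoblasts. The low value of Smurf2 came from myoblast library 04 alone, and its difference of -0.36 on the log2 scale (SE 0.36, limma adjusted p = 0.435) became 0.02 without that library.

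Hecw2 (chr1:53846035-54234327 (-)), a ligase known to stabilise p73, was near the limit of detection in MuSCs and present in myoblasts. It measured 0, 0.0757 and 0.494 RPM in fresh MuSCs, or 0, 2.67 and 17.4 normalized counts, and 4.26, 4.98 and 4.29 RPM in myoblasts, or 150.2, 175 and 151 normalized counts. The groups did not overlap. The rise was 2.23 on the log2 scale (SE 0.27) with a limma adjusted p of 0.000266, and its size depends on the pseudocount of 1 RPM, since pseudocounts of 5 and 0.1 gave 0.87 and 4.39. Among fresh MuSCs only the library with 17.4 normalized counts reached the 10 that the filter asks for in 3 libraries. Hecw2 was therefore tested only through myoblasts, the group where it is high, and its call adds no support of its own.

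Both adaptors, Ndfip1 (chr18:38543449-38599910 (+)) and Ndfip2 (chr14:105496008-105546732 (+)), had lower mean levels in myoblasts, and Ndfip2 passed the test. Ndfip2 measured 188, 157 and 183 RPM in fresh MuSCs and 117, 89.8 and 82.0 RPM in myoblasts, without overlap. Its log2 fold change was -0.88 (SE 0.20, 95% interval -1.33 to -0.43), a 1.84-fold fall with a limma adjusted p of 0.00729. Ndfip1 measured 498, 502 and 414.5 RPM in fresh MuSCs and 449.8, 297 and 283 RPM in myoblasts. The groups of Ndfip1 overlapped through myoblast library 04, and the log2 fold change was -0.48 (SE 0.22, 95% interval -0.97 to 0.01) with a limma adjusted p of 0.1. Without that library the adjusted p was 0.00712 at a log2 fold change of -0.70.

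Paired by mouse, Nedd4l, Itch, Ndfip1 and Ndfip2 were lower and Wwp1, Wwp2, Smurf1 and Hecw2 were higher in myoblasts in 3 of 3 mice, while Nedd4 (higher in 2) and Smurf2 (lower in 2) were not of one sign. For Itch the difference in the mouse of libraries 06 was only -0.028 on the log2 scale. The share of all tested genes with the same sign in 3 of 3 mice was not counted, so these signs are not read as a result about the members. Myoblast library 04 decided the call of Ndfip1 and the direction of Smurf2. It also held the least RNA of sarcomere genes, with 648 RPM of Ttn against 4026 and 6037 RPM in the other 2 myoblast libraries. Myofiber markers (8 genes) summed to between 9639 and 26630 RPM in myoblasts and between 360.0 and 556 RPM in fresh MuSCs, without overlap. Myoblast markers (8 genes) summed to between 7563 and 11570 RPM in myoblasts and between 1498 and 1793 RPM in fresh MuSCs. Among the latter markers, Mki67, Ccnb1 and Cdk1 overlapped. Pericyte and smooth muscle markers (5 genes) also summed higher in myoblasts, at 1633 to 2410 against 1092 to 1402 RPM, although Kcnj8, Myh11 and Pdgfrb were under 1 RPM in every myoblast library. Acta2 carried nearly all of these sums, at 1610 to 2400 RPM in myoblasts and 1078 to 1382 RPM in fresh MuSCs. Fibro-adipogenic markers (6 genes) summed to 4.39 to 6.74 RPM in myoblasts and 47.4 to 160.2 RPM in fresh MuSCs, and endothelial markers (6 genes) to 7.82 to 13.8 and 41.9 to 44.3 RPM, again without overlap. Dcn and Col1a1 carried the fibro-adipogenic fall. Pdgfra, Dpp4 and Pi16 overlapped, and Ly6a lay higher in myoblasts, at 1.45 to 2.50 against at most 0.428 RPM. Tek carried the endothelial fall, from 25.6 to 34.8 RPM in fresh MuSCs to at most 0.921 RPM in myoblasts, while Pecam1 overlapped. The part of these cell types in the members' changes was not tested.

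**Figure D1:**
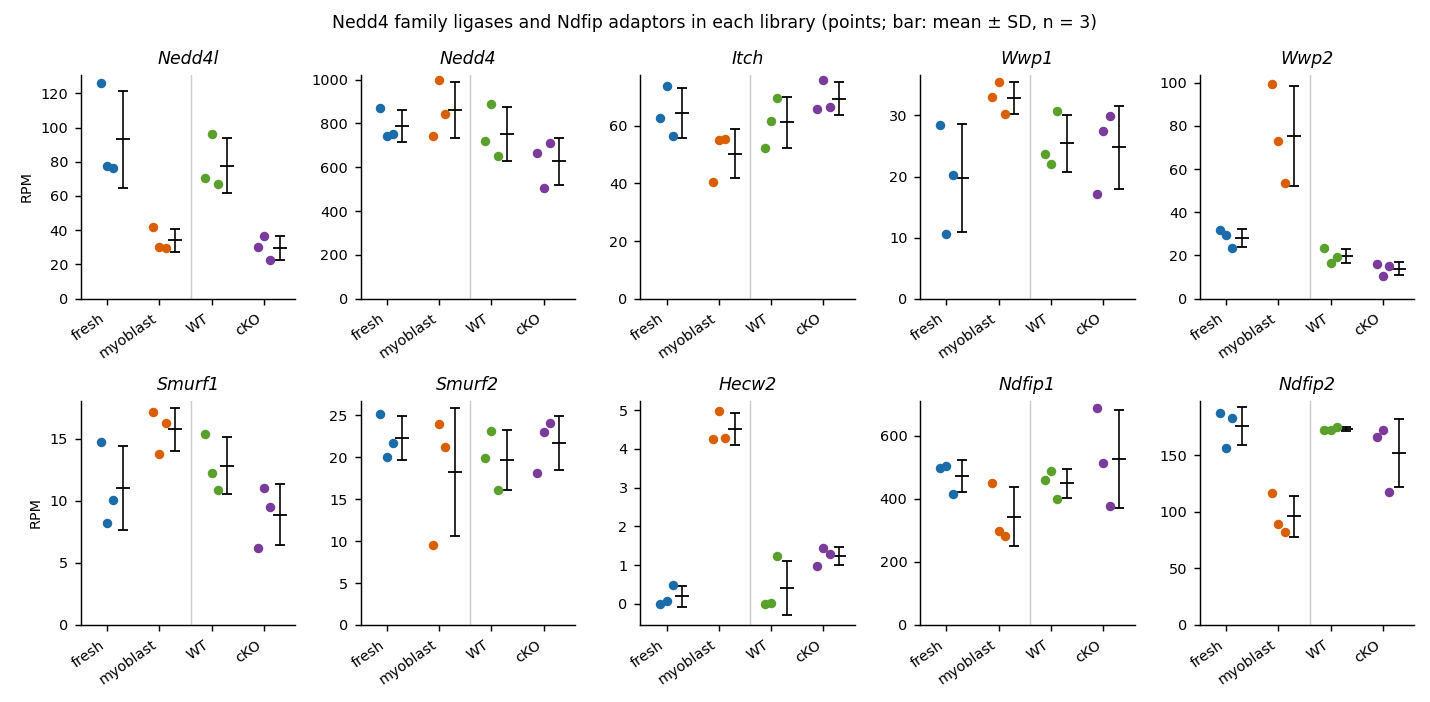
RPM (vertical axes, linear) of each member in the 12 libraries, as points, with the mean and SD of each group of 3 beside them; fresh MuSCs and myoblasts stand left of the grey line, WT and Nedd4L-cKO MuSCs right of it. Nedd4l lay lower in all 3 myoblast and all 3 Nedd4L-cKO libraries than in their controls, while Wwp2 and Hecw2 lay higher in all 3 myoblast libraries than in fresh MuSCs.

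In Nedd4L-cKO against WT MuSCs, the targeted gene was the single member that passed the limma test. In WT MuSCs Nedd4l measured 70.2, 96.5 and 66.7 RPM, whereas Nedd4L-cKO MuSCs gave 30.2, 36.3 and 22.5 RPM. These gene totals do not separate transcripts with and without the removed exon, so the genotype of the libraries was not tested. The groups stood well apart. The log2 fold change was -1.37 (SE 0.28, 95% interval -1.97 to -0.77), a 2.58-fold fall with a limma adjusted p of 0.0467 and an exact two-sided permutation p of 0.1, the smallest possible. The call lies close to the threshold and was lost when any library other than WT 03 was left out, at adjusted p values of 0.0838 to 0.197, while every Nedd4L-cKO library stayed under every WT library. With the replicate number as a block the adjusted p was 0.0763.

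Of the 15304 genes tested in this comparison 0.784% passed, 0.523% as higher and 0.261% as lower, or 80 and 40 genes, which became 56 and 44 with each library scaled to its own total. The median log2 fold change was -0.13 over the members and 0.00 over all genes tested. Groups did not overlap for 3 of the 10 members (Nedd4l, Wwp2 and Ndfip2), against 19.3% of all genes tested. Sums of the markers of 2 other cell types also separated the genotypes, though not every marker did. Pericyte and smooth muscle markers (5 genes) summed to between 1144 and 1890 RPM in WT and between 2150 and 3172 RPM in Nedd4L-cKO libraries, and myofiber markers (8 genes) to between 263 and 507 RPM in WT and between 543 and 647 RPM in Nedd4L-cKO libraries. Among the former, Acta2 (513 to 949 RPM in WT, 993 to 1661 RPM in Nedd4L-cKO libraries) and the low Myh11 were apart. Rgs5, Pdgfrb and Kcnj8 overlapped. Within the satellite cell markers, whose sums overlapped, Calcr (254 to 304 RPM in WT, 117 to 204 RPM in Nedd4L-cKO libraries), Spry1 (201 to 338 and 56.2 to 147 RPM) and Heyl (244 to 394 and 128 to 180.5 RPM) lay lower in every Nedd4L-cKO library than in any WT library. Vcam1 lay higher, at 658 to 815 RPM against 425 to 574 RPM in WT. Myoblast markers (8 genes) overlapped in sum, at 331 to 1187 RPM in WT and 644 to 1144 RPM in Nedd4L-cKO libraries. Among them, Ccnb1 lay higher without overlap, at 9.93 to 32.8 RPM in WT and 63.4 to 91.6 RPM in Nedd4L-cKO libraries. Cdk1 did too, at 15.9 to 39.8 and 49.3 to 104 RPM, and the others overlapped. The endothelial marker Tek lay lower without overlap, at 19.1 to 28.4 RPM against 40.9 to 79.6 RPM in WT, while Pecam1 overlapped. Fibro-adipogenic markers (6 genes) overlapped, at 243 to 1607 RPM in WT and 363 to 2306 RPM in Nedd4L-cKO libraries. Their part in the changes of the members was not tested.

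None of the 7 other ligases passed the test. Nedd4 measured 719, 889.6 and 650.5 RPM in WT and 666.5, 504 and 709.9 RPM in Nedd4L-cKO MuSCs, with overlapping groups. The difference was -0.27 on the log2 scale (SE 0.25, 95% interval -0.81 to 0.27), at a limma adjusted p of 0.659. Its interval reaches neither a doubling nor the estimate of -1.37 for Nedd4l. The 2 intervals overlap slightly, as that of Nedd4l runs from -1.97 to -0.77. Itch measured 52.1, 61.6 and 69.7 RPM in WT and 65.9, 76.0 and 66.4 RPM in Nedd4L-cKO MuSCs, also with overlap. Its difference was 0.19 on the log2 scale (SE 0.24, 95% interval -0.34 to 0.71), at a limma adjusted p of 0.768.

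Wwp2 measured 23.3, 16.7 and 19.2 RPM in WT and 16.1, 10.52 and 15.2 RPM in Nedd4L-cKO MuSCs. These groups just missed overlapping, and the log2 fold change of -0.48 (SE 0.30) had a limma adjusted p of 0.490. Wwp1 measured 23.6, 22.0 and 30.7 RPM in WT and 17.1, 27.4 and 29.9 RPM in Nedd4L-cKO MuSCs. Its difference of -0.06 on the log2 scale (SE 0.30, limma adjusted p = 0.947) turned to 0.18 without Nedd4L-cKO library 01 and to 0.08 without WT library 03. Smurf1 measured 15.3, 12.2 and 10.9 RPM in WT and 6.17, 10.98 and 9.46 RPM in Nedd4L-cKO MuSCs, with a log2 fold change of -0.50 (SE 0.33) and a limma adjusted p of 0.518. The groups of Wwp1 and Smurf1 overlapped.

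Smurf2 measured 19.9, 23.1 and 16.1 RPM in WT and 18.1, 23.0 and 24.1 RPM in Nedd4L-cKO MuSCs, with a log2 fold change of 0.14 (SE 0.28) and a limma adjusted p of 0.854. Hecw2 measured 0, 0.0258 and 1.22 RPM in WT and 0.974, 1.44 and 1.30 RPM in Nedd4L-cKO MuSCs. The groups of Smurf2 and of Hecw2 overlapped, for Hecw2 through WT library 03 alone. The log2 fold change of Hecw2 was 0.76 (SE 0.32) with a limma adjusted p of 0.306, at levels of at most 62.9 normalized counts, and pseudocounts of 5 and 0.1 RPM gave 0.21 and 2.37.

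The adaptors did not pass the test in this comparison. Ndfip1 measured 459, 489 and 399 RPM in WT and 688, 513 and 376 RPM in Nedd4L-cKO MuSCs, overlapping groups that differed by 0.19 on the log2 scale (SE 0.27, limma adjusted p = 0.789), which became -0.03 without Nedd4L-cKO library 01. Ndfip2 measured 172.5, 172.4 and 175 RPM in WT and 167, 172.3 and 117.5 RPM in Nedd4L-cKO MuSCs, so that its groups were separated by less than 1 RPM, with a log2 fold change of -0.21 (SE 0.24, 95% interval -0.74 to 0.33) and a limma adjusted p of 0.741. The low value came from Nedd4L-cKO library 03, and the difference was -0.03 on the log2 scale without it.

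**Figure D2:**
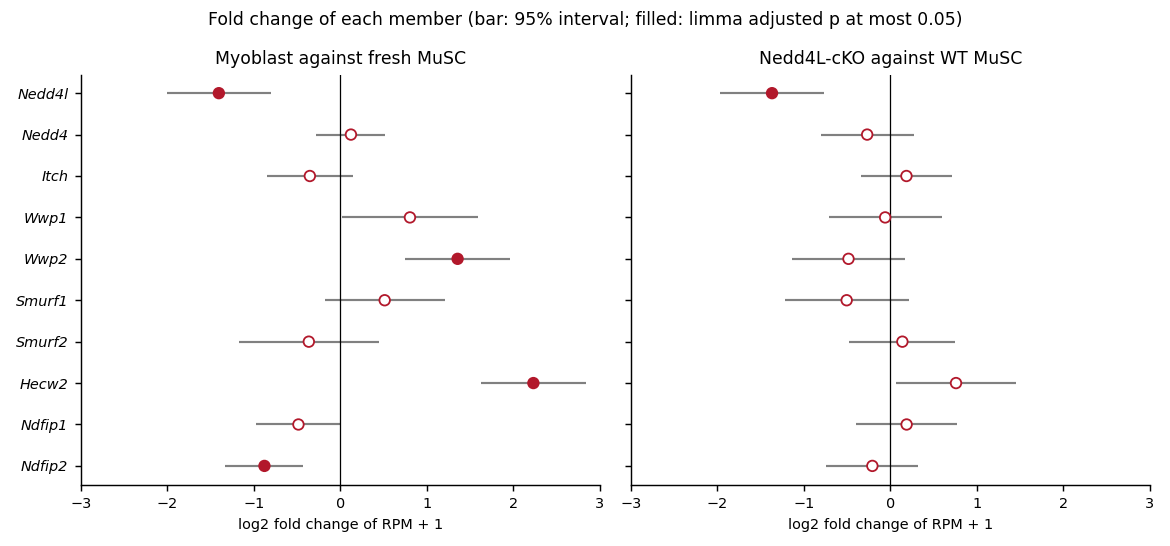
Log2 fold change of RPM + 1 (horizontal axes) of each member in the 2 comparisons, with 95% intervals from limma as bars and filled points where the adjusted p was at most 0.05. Nedd4l is filled on both sides, at -1.40 and -1.37, and Wwp2, Hecw2 and Ndfip2 are filled for myoblasts alone, where the difference between the 2 comparisons was not tested.

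The make-up of the ligases other than Nedd4 differed in culture, with less Nedd4l and more Wwp2. In fresh MuSCs, Nedd4l held 31.1% ± 4.37 of their summed RPM per kb, Itch 30.5% ± 5.84 and Wwp2 15.6% ± 1.34 (SD, n = 3). In myoblasts, Wwp2 held 39.3% ± 8.89, Itch 22.7% ± 5.34 and Nedd4l 10.96% ± 1.55. The shares of Nedd4l and of Wwp2 did not overlap between the groups, and those of Itch did. The summed level of the 7 ligases was 36.0 ± 5.79 RPM per kb in fresh MuSCs and 37.7 ± 3.28 RPM per kb in myoblasts, which overlapped. By level per kb, Wwp2 moved from rank 6 to rank 4 among the 10 members, with a range apart from that of Itch under it, and Nedd4l moved from rank 4 to rank 6, overlapping Wwp1.

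In Nedd4L-cKO MuSCs no other ligase passed the test beside the fall of Nedd4l. Nedd4l held 29.1% ± 4.60 of the RPM per kb of these ligases in WT and 13.7% ± 2.83 in Nedd4L-cKO MuSCs, and Itch held 31.8% ± 4.39 and 44.2% ± 1.68, in both cases without overlap. The summed level of the 7 ligases was lower in Nedd4L-cKO MuSCs, at 26.4 ± 2.12 RPM per kb against 32.4 ± 1.71 in WT, and the ranges (24.3 to 28.6 and 30.9 to 34.3 RPM per kb) did not overlap. Shares sum to a whole, so the larger share of Itch goes with the fall of Nedd4l, and its RPM did not pass the test. Itch stood alone behind the 3 leaders in Nedd4L-cKO MuSCs, and Nedd4l was at rank 6, overlapping Smurf2 and Wwp2.

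**Figure D3:**
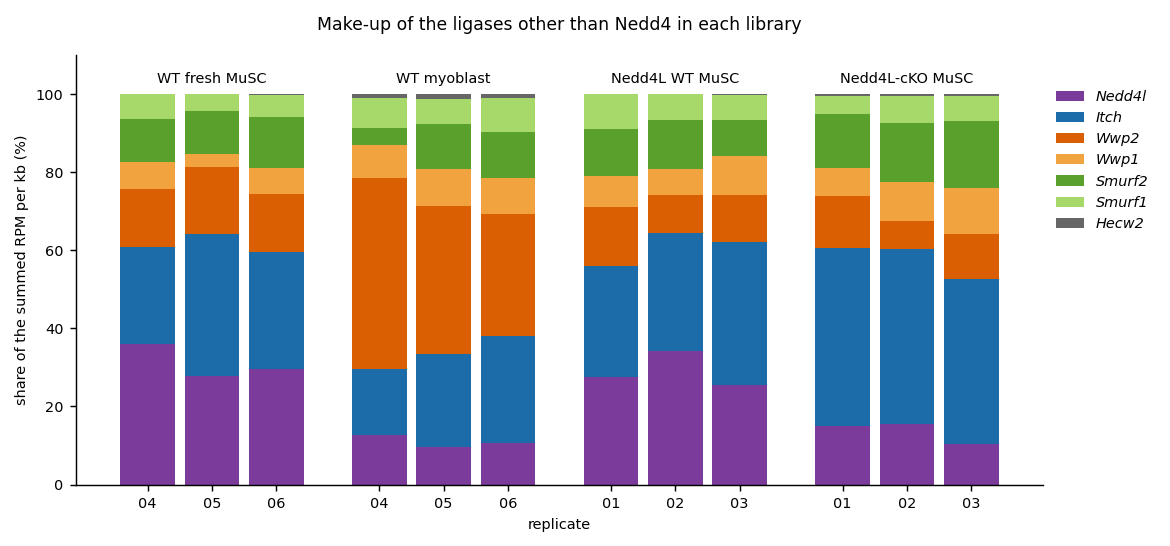
Share (%) of the summed RPM per kb of the 7 ligases other than Nedd4 in each library (stacked bars, one per library, grouped by condition). Nedd4l took 27.8% to 36.0% in fresh MuSCs and 9.58% to 12.6% in myoblasts, where Wwp2 took 31.4% to 48.9%; in Nedd4L-cKO MuSCs Nedd4l took 10.4% to 15.5% and Itch 42.4% to 45.6%.

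Ratios of related members within a library remove any factor common to all genes of that library, but not factors that differ between genes, as those of the authors do, and the added 1 RPM weighs on low members. The ratio of Nedd4 to Nedd4l (RPM + 1) was 6.87, 9.46 and 9.72 in fresh MuSCs and 17.3, 31.9 and 27.5 in myoblasts, and 10.1, 9.14 and 9.62 in WT and 21.4, 13.5 and 30.2 in Nedd4L-cKO MuSCs. It was higher without overlap in both comparisons, by 1.53 and 1.10 on the log2 scale (exact two-sided permutation p = 0.1 in each). The ratio of Ndfip1 to Ndfip2 was 2.65, 3.19 and 2.26 in fresh MuSCs and 3.84, 3.28 and 3.42 in myoblasts, and 2.65, 2.83 and 2.27 in WT and 4.11, 2.96 and 3.19 in Nedd4L-cKO MuSCs. It too was higher without overlap in both, by 0.39 and 0.40 on the log2 scale (exact two-sided permutation p = 0.1 in each).

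The ratio of Smurf2 to Smurf1 differed by 0.64 on the log2 scale between Nedd4L-cKO and WT MuSCs without overlap (exact two-sided permutation p = 0.1), and by -0.88 between myoblasts and fresh MuSCs with overlap (exact permutation p = 0.2). The permutations treat the libraries as unpaired. Paired by mouse, the Smurf2 to Smurf1 ratio was lower in myoblasts in 3 of 3 mice, by 1.52, 0.44 and 0.68 on the log2 scale, and an exact sign-flip permutation test, added after the data were seen, gave p = 0.25, the smallest that 3 pairs allow. Ratios of Nedd4 to Nedd4l and of Ndfip1 to Ndfip2 were higher in 3 of 3 mice. For Ndfip1 to Ndfip2 the mouse of libraries 05 showed almost no difference, at 0.042 on the log2 scale. The mice of libraries 04 and 06 gave 0.537 and 0.599 for that ratio. The ratio of Wwp1 to Wwp2 was lower in 2 of 3 mice. The ratio of Wwp1 to Wwp2 overlapped in both, with differences of -0.55 in myoblasts and 0.42 in Nedd4L-cKO MuSCs (exact permutation p = 0.3 and 0.4). Over the 8 ratios compared, the smallest Benjamini-Hochberg adjusted permutation p was 0.16, and 3 libraries against 3 allow no p under 0.1.

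**Figure D4:**
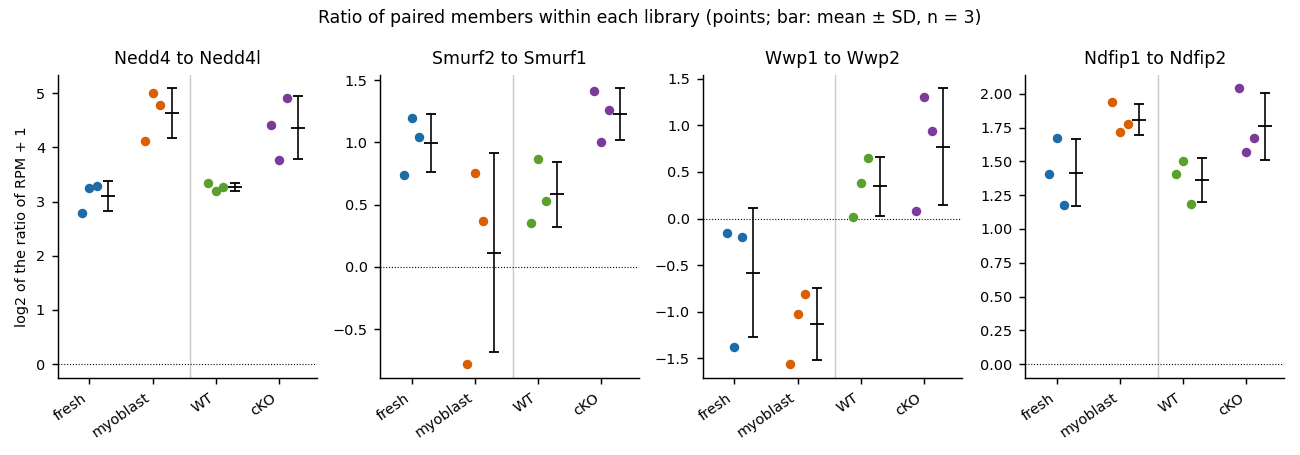
Log2 of the ratio of RPM + 1 of 4 pairs of members within each library (points), with the mean and SD of each group of 3; the dotted line marks equal values. The Nedd4 to Nedd4l ratio averages 3.10 in fresh MuSCs, 4.63 in myoblasts, 3.27 in WT and 4.37 in Nedd4L-cKO MuSCs, and the Ndfip1 to Ndfip2 ratio 1.42, 1.81, 1.36 and 1.76.

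Among the genes tested in both tables (14342), the profile most like that of Nedd4l over the 12 libraries was sought by the root mean square difference of log2(RPM + 1), after centring each gene within each table. The nearest were Pgap4, an enzyme of GPI anchor processing, at 0.209, Pfkp, a phosphofructokinase of glycolysis, at 0.254, Spop, a substrate adaptor of cullin ligases, at 0.275, Zfp566 at 0.277 and Mios, a subunit of the GATOR2 complex, at 0.287. All 5 were lower in myoblasts at limma adjusted p values of 0.00028 (Pfkp) to 0.00596 (Spop). In Nedd4L-cKO MuSCs none of the 5 passed the test, with log2 fold changes of -0.82 (Zfp566) to -1.25 (Pgap4, limma adjusted p = 0.0677). Their likeness to Nedd4l was the ground on which they were chosen. Within the family the profile nearest to Nedd4l was that of Ndfip2, at 0.489 and rank 394, and Ndfip1 followed at 0.676 and rank 2747.

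Genes that work with the family were grouped into 6 lists of 101 genes in all. In myoblasts against fresh MuSCs 40 of the 98 listed genes that were tested passed, 14 as higher and 26 as lower, or 40.8% against 42.8% of all genes. Their median log2 fold change was -0.12.

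Of the 19 other HECT ligases, which include Hecw1, the near relative of Hecw2, 6 passed. Ube3b rose from 15.7 ± 5.03 to 96.6 ± 16.2 RPM (SD, n = 3), or by 2.59 on the log2 scale, and Herc3 and Hectd3 rose by 1.98 and 0.88 on the log2 scale. Herc6, an interferon-inducible family member, fell from 29.5 ± 13.2 to 4.80 ± 2.56 RPM, a log2 fold change of -2.38, and Herc2 and G2e3 fell by 1.05 and 0.95. The median of this list was 0.07.

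Of the 20 other genes for PY-motif adaptors and scaffolds, 7 passed and 5 of these fell. Txnip, an α-arrestin that restrains glucose uptake, fell from 88.5 ± 13.6 to 7.46 ± 5.21 RPM (log2 fold change -3.61), Arrb1 fell by 1.65 and the α-arrestin Arrdc4 fell by 1.47 on the log2 scale. The lysosomal membrane proteins Laptm4a (133 ± 18.2 to 476 ± 48.4 RPM, log2 fold change 1.84) and Laptm5 rose. Laptm5 was listed at 0 in 2 of the 3 MuSC libraries and reached 17.5 ± 4.46 RPM in myoblasts. Like Hecw2, Laptm5 passed the filter only with its myoblast libraries, where it is high, so its call adds no support of its own. Their relative Laptm4b fell from 157 ± 13.2 to 65.2 ± 8.41 RPM, so the Laptm genes did not move together. The median of the list was 0.30.

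Of the 9 E1 and E2 enzymes, which charge the ligases with ubiquitin, 2 passed and both fell, Ube2e3 by 1.07 and Ube2d2a by 0.61 on the log2 scale. The other 7 did not pass, among them Ube2l3 and the E1 enzyme Uba1, with log2 fold changes of 0.33 and 0.57.

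Among kinases and 14-3-3 proteins, some of which control the binding of Nedd4l to its targets, 6 of the 14 tested passed. Sgk1, the kinase that phosphorylates Nedd4l and leads it to bind 14-3-3 proteins, fell from 277 ± 69.7 to 48.6 ± 8.63 RPM, a log2 fold change of -2.47 with a limma adjusted p of 6.75e-05. Mapk9, which encodes JNK2, fell by 1.10 and the 14-3-3 gene Ywhae by 0.74. Akt2 rose from 74.8 ± 10.9 to 461 ± 69.8 RPM (log2 fold change 2.61), Fyn rose by 1.72 and the 14-3-3 gene Ywhag by 1.70.

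Of the 28 tested genes for known substrates, 15 passed, or 53.6% against 42.8% of all genes. Of these 15, 4 were higher and 11 lower, and the median log2 fold change of the list was -0.59. The largest falls were those of Junb, a target of Itch (-3.55), Pax7, a target of Nedd4 (-3.17), and the amino acid transporter Slc38a2, a target of Nedd4l (-3.03). The largest rises were those of Runx2, a target of Smurf1 (5.18), Klf5, a target of Wwp1 (4.67), and Dvl2 (1.96). Runx2 measured 0.119, 0.502 and 0.0252 RPM in fresh MuSCs, near the limit of detection, so the size of its rise depends on the pseudocount. Runx2 too passed the filter only with its myoblast libraries, where it is high, so its call adds no support of its own. Pax7 is also a marker of the sorted cells. Of the 8 deubiquitinases 4 passed, Usp11 and Usp8 as higher (1.08 and 0.66) and Uchl3 and Usp9x as lower (-0.97 and -0.62).

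In Nedd4L-cKO against WT MuSCs, 1 of the 95 listed genes that were tested passed, or 1.05% against 0.784% of all genes. This was Klf2, a transcription factor and a known target of Smurf1, at 7.15, 3.74 and 6.59 RPM in WT and 23.7, 16.9 and 25.1 RPM in Nedd4L-cKO MuSCs. This rise of 1.76 on the log2 scale (SE 0.34) had a limma adjusted p of 0.0401. No Nedd4L-cKO library of Klf2 overlapped WT, but no listed gene passed without WT library 01 or 02 or without Nedd4L-cKO library 01 or 02. At an unadjusted p under 0.05, 15 of the 95 genes passed, or 15.8% against 14.6% of all genes, and the median log2 fold change was -0.13. None of the other HECT ligases, PY-motif genes, E1 and E2 enzymes, kinases, 14-3-3 genes and deubiquitinases passed the limma test. Of these 68 genes, 9 had an unadjusted limma p under 0.05, or 13.2% against 14.6% of all genes. The lists differed, from 0 of 14 kinases and 14-3-3 genes to 4 of 9 E1 and E2 enzymes (44.4%). Among the substrates it was 6 of 27 (22.2%). Sgk1, Txnip and Pax7, which fell in myoblasts, did not pass here, with Sgk1 at -0.42 (limma adjusted p = 0.531), Txnip at 0.59 (0.298) and Pax7 at -0.35 (0.572).

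**Figure D5:**
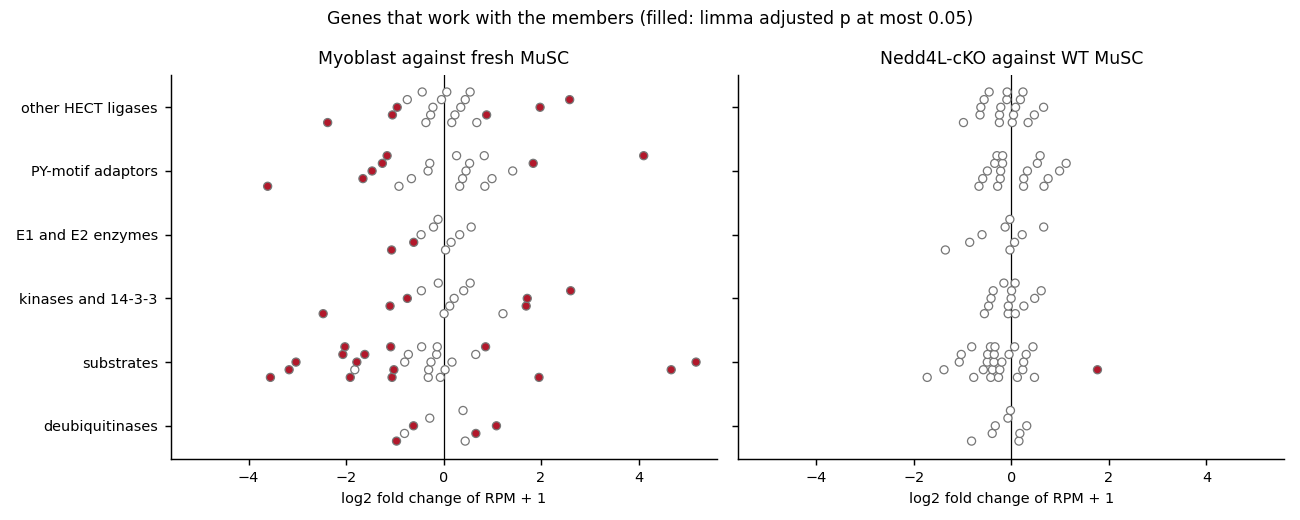
Log2 fold change of RPM + 1 (horizontal axes) of each tested gene of the 6 lists in the 2 comparisons (points, spread vertically for sight only), filled where the limma adjusted p was at most 0.05. In myoblasts 40 of 98 points are filled, from -3.61 (Txnip) to 5.18 (Runx2, near the limit of detection in fresh MuSCs). In Nedd4L-cKO MuSCs the single filled point is Klf2 at 1.76.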

How the data were processed

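RNA-seq libraries of 1000 cells were analysed, 3 for each of the 4 groups, grouped by their labels. According to the methods and labels, the authors quantified transcripts with kallisto 0.46.1 on the GENCODE M28 basic annotation and summed them to genes with tximport. Each deposited table holds a signal: gene counts after the authors' DESeq2 normalization, done separately for each comparison by factors that differ between genes and libraries. Reads could not be recovered from them, so the read depth is unknown. The deposited fold changes, p-values and RPM columns hold the authors' own results and were not used.

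RPM were obtained on dividing by the mean normalized total of the 6 libraries in a table, and log2(RPM + 1) was fitted with limma 3.58.1 (lmFit, then eBayes with trend and robust) in R 4.3.3, for every gene reaching 10 normalized counts in 3 or more libraries, with Benjamini-Hochberg adjustment over all tested genes. This scale understates changes of low genes. Single values and ratios were compared by exact permutation tests over all 20 assignments of the 6 libraries to groups, which treat the libraries as unpaired; a sign-flip test within mice was added after the data were seen. Levels per kb used the canonical transcript of GENCODE M39 on GRCm39, a later release than the authors' annotation. Proteins were translated from these transcripts and aligned with Biopython 1.88 (BLOSUM62). The canonical Smurf1 transcript ends before the HECT cysteine, so another Smurf1 transcript was used for the sequences.

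The members and the lists were chosen with earlier results of these data known. The text names all members, up to 3 rises and 3 falls per list and comparison among genes that passed, and the 5 genes most like Nedd4l; Laptm4b, Ube2l3 and Uba1 in myoblasts, and Sgk1, Txnip and Pax7 in Nedd4L-cKO MuSCs, were named after their values were seen. Fresh MuSC and myoblast libraries of the same number came from the same mouse, which pairs them; the correlations of their deviations from the group means were -0.0314, -0.00502 and 0.018. The alternatives were other factors between libraries, pseudocounts, filters and limma options, a replicate block, the study's thresholds and each library left out.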

Additional observations from a re-analysis of the deposited data

How the results depend on the processing

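Of the members in myoblasts, 4 passed under every other setting except the study's thresholds on fold change and RPM (2 passed, with 3872 in place of 6566 genes overall), the filter that leaves Hecw2 untested (3 of 9) and the left-out libraries (4 to 5). In Nedd4L-cKO MuSCs, Nedd4l lost its call with a pseudocount of 0.1 (log2 fold change -1.395, limma adjusted p = 0.0533) or 5 (-1.26, 0.062). It also did so with no filter (-1.37, 0.0543), without limma's trend and robust options (-1.37, 0.0853) and with the replicate block (-1.37, 0.0763). In each case 0 members were called. Leaving out any 1 library other than WT 03 also lost the call (-1.52 to -1.19), again with 0 members called. Without WT 03, 1 member was called. Over all alternatives the limma adjusted p of Nedd4l ran from 0.02 to 0.197. The cause was not tested. Called list genes in Nedd4L-cKO MuSCs numbered 0 with each library scaled to its own total, 0 without the limma options, 0 with the block, 3 where all libraries had to reach 10 normalized counts and 0 to 3 with a library left out, and called genes overall numbered 213 with that filter, 50 without the limma options, 76 with the block and 21 to 176 with a library left out, against 120.

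Same-numbered WT and Nedd4L-cKO libraries share only a number (correlations of deviations 0.0192, -0.0232 and -0.181), and not every library correlated best with its own number. In the paired comparison of myoblasts the block changed no call of a member (4 called, Nedd4l adjusted p = 0.0033). Directions turned for Smurf2 in myoblasts (0.02 without myoblast library 04, and -0.60 to 0.02 over the left-out libraries), for Wwp1 in Nedd4L-cKO MuSCs (0.08 without WT library 03, 0.18 without Nedd4L-cKO library 01, from -0.21 to 0.18 in all) and for Ndfip1 in Nedd4L-cKO MuSCs (-0.027 without Nedd4L-cKO library 01, from -0.027 to 0.41 in all). Scaling each library to its own total moved the median log2 fold change of all genes by 0.101 in myoblasts and turned the direction of no member, and the split of calls in Nedd4L-cKO MuSCs from 80 higher and 40 lower to 56 and 44. In myoblasts that scaling gave 3880 higher and 2714 lower calls against 3402 and 3164. The ratios kept their direction with a pseudocount of 0.1 and with each library left out, but not their size. Smurf2 to Smurf1 in myoblasts ran from -1.20 to -0.43 (without myoblast library 04). Wwp1 to Wwp2 ran from -0.95 (without MuSC library 05) to -0.34 (without MuSC library 04 or myoblast library 04; -0.36 without MuSC library 06) in myoblasts, and in Nedd4L-cKO MuSCs from 0.16 (without Nedd4L-cKO library 02; 0.26 without WT library 01) to 0.77 (without Nedd4L-cKO library 01). Ndfip1 to Ndfip2 in Nedd4L-cKO MuSCs was 0.26 without Nedd4L-cKO library 01. The read depth is unknown, so no counting error could be given.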
